A study of Mus musculus with 2 samples.

Results

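The 28 genes described here make cholesterol and fatty acids in mouse cells, or control that synthesis. They were given as a list of symbols, 20 for the sterol branch and 8 for the fatty acid branch, and all 28 were found among the 31053 genes measured in both single-cell libraries. Both libraries came from whole cochlear explants of wild-type C57BL/6J mice aged 4 to 6 weeks, whose sensory epithelium was dissected and dissociated after culture. In the cocktail library the explants had received valproic acid (VPA, a histone deacetylase inhibitor) at 1.5 mM, lithium chloride (LiCl) at 8 mM, forskolin (FSK, an activator of adenylyl cyclase) at 20 µM, and the small interfering RNAs siFIR and siMxi1 at 0.02 µM each, for 4 days. In the vehicle library they had received sterile water with 0.1% DMSO for the same 4 days. Both sets were then infected with ad.Atoh1, an adenovirus carrying the hair cell transcription factor Atoh1, for 2 weeks, so no uninfected explant enters any comparison. Each library pooled 5 cultures.

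Cells build cholesterol from acetyl-CoA. The early enzymes lead through mevalonate to farnesyl diphosphate, the squalene enzymes join and close the chain into lanosterol, and the late enzymes trim lanosterol to cholesterol. When cholesterol in the endoplasmic reticulum is low, SCAP carries the transcription factor SREBP2 (gene Srebf2) to the Golgi, where it is cut and released, and INSIG proteins hold that step back. SREBP1 (gene Srebf1) does the same mainly for fatty acid genes: Acly and Me1 supply acetyl-CoA and NADPH, Acaca and Fasn build palmitate, and elongases and the stearoyl-CoA desaturases Scd1 and Scd2 lengthen and desaturate it. In the cochlea, cholesterol is known to shape the membranes of outer hair cells, and myelinating glia are known as strong producers of lipid.

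Upstream sequence of 5 members is shown because the sterol genes share a short motif there. The RefSeq start-site table (GRCm38.p6) matched 16 of the 20 sterol genes and 6 of the 8 fatty acid genes. In the 250 bases before the start, the letters CCAAT, a site known to be bound by NF-Y, occurred on either strand in 15 of the 16 sterol genes and in 3 of the 6 fatty acid genes (Me1, Fasn and Srebf1). The same letters occurred in 39.4% of the 12664 measured genes with a start in the table. TCACNCCAC, a form of the sterol regulatory element, occurred in Hmgcs1 and in no other matched member, against 1.2% of measured genes. The GC-box letters GGGCGG occurred in 15 of the 16 sterol genes and in 59.4% of measured genes, and CACGTG in 4 of the 16 and in 9.2%. These are matches of letters and not tested sites. Each stretch below is read 5′ to 3′ on the gene's own strand and lies before both the RefSeq and the GENCODE start. Capitals mark CCAAT or its reverse complement ATTGG, and in Hmgcs1 also the sterol element. In Fasn a CCAAT overlaps an ATTGG.
Hmgcs1 (HMG-CoA synthase, plus strand, chr13:119690169-119690278): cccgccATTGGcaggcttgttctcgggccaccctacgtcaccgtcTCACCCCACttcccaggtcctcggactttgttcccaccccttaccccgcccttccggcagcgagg
Mvd (mevalonate diphosphate decarboxylase, minus strand, chr8:122443423-122443532): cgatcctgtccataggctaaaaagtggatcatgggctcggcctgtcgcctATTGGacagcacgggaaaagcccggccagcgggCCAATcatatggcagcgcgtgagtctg
Hsd17b7 (a late sterol reductase, minus strand, chr1:169969242-169969351): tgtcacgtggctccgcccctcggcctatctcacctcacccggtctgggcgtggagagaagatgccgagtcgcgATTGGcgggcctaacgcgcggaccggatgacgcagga
Ebp (sterol isomerase, minus strand, chrX:8193513-8193622): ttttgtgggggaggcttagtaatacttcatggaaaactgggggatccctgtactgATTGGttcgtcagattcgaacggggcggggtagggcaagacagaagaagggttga
Fasn (fatty acid synthase, minus strand, chr11:120824548-120824657): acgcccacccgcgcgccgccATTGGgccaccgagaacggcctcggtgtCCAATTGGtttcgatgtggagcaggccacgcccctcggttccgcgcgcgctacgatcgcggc

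The labels state about 1400 cocktail and 1700 vehicle cells, and the files hold 1403 and 1688 barcodes. After filtering, 1329 and 1584 cells remained, with 19531019 and 23017362 unique molecular identifiers (UMIs, each standing for 1 captured RNA molecule) and a median of 10391 and 12267 UMIs per cell. No cell barcode was shared between the libraries. Levels are UMIs summed over cells per 1000000 UMIs (CPM). Ratios are log2 of cocktail over vehicle, with a 95% interval in brackets that covers counting error only. With 1 library per treatment there was no replicate, so no difference was tested. The treatment, the library and the mixture of cells in each cannot be told apart at the level of the whole library, where fewer cells of a type and less RNA per cell give the same reading. All 28 members had at least 95 UMIs in each library. The 3′ tags were not scaled by gene length, so levels are compared within a gene or within a fixed sum of genes.

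Most sterol genes were modestly higher in the cocktail library. Of the 20, 15 were higher, against 44.3% of the 17260 genes with at least 20 UMIs, and their median log2 ratio was 0.15, against -0.03 for all genes. At least 25% higher were 4 sterol genes, against 14.5% of all genes, and 1 was at least 20% lower, against 19.3%. Counting intervals lay above 0 for 8 sterol genes, against 17% of all genes, and below 0 for 1, against 22.8%.

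Among the early enzymes, Fdps, which makes farnesyl diphosphate, measured 49.8 CPM with cocktail and 42.3 CPM with vehicle, a log2 ratio of 0.24 (0.11 to 0.37). Idi1, which isomerises isopentenyl diphosphate, measured 37.2 and 32.0 CPM, 0.22 (0.07 to 0.37). Hmgcs1 measured 34.2 and 31.9 CPM, 0.10 (-0.06 to 0.25). Acat2, which joins acetyl-CoA units, stood at 15.6 and 13.5 CPM, whereas the mevalonate kinases Mvk (15.5 and 15.9 CPM) and Pmvk (29.2 and 32.3 CPM) were on the other side of 0, each with an interval that holds 0. Mvd measured 12.3 and 15.5 CPM, -0.33 (-0.57 to -0.09). That lower value came largely from 1 vehicle cell of 1135 UMIs that held 66 of the 356 vehicle UMIs of Mvd. Once the top cell of each library was left out, the Mvd ratio was -0.09 (-0.35 to 0.16).

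Among the sterol enzymes, with the regulators set apart, the largest log2 ratio by value lay in the squalene step. Fdft1, squalene synthase, measured 71.1 and 50.1 CPM, 0.50 (0.39 to 0.62), and its highest cell held 16 of 1389 cocktail UMIs. Sqle, squalene epoxidase, measured 24.0 and 21.9 CPM, and Lss, lanosterol synthase, 4.86 and 4.47 CPM, both with intervals that hold 0.

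Among the late enzymes, Sc5d, a sterol desaturase, measured 24.3 and 18.5 CPM, 0.39 (0.20 to 0.59). Cyp51, the lanosterol demethylase, measured 38.3 and 31.9 CPM, 0.26 (0.11 to 0.41), and Msmo1, the methylsterol oxidase, 41.6 and 37.6 CPM, 0.15 (0.01 to 0.29). Taken as the mean of each cell's own CPM, Cyp51 and Msmo1 turned to -0.08 and -0.19. That mean weights shallow and deep cells alike, whereas the sums weight each molecule alike. Nsdhl (11.4 and 10.2 CPM), Dhcr7 (21.4 and 20.8 CPM), Hsd17b7 (19.5 and 20.8 CPM) and Ebp (43.1 and 45.8 CPM) had intervals that hold 0.

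**Figure D1:**
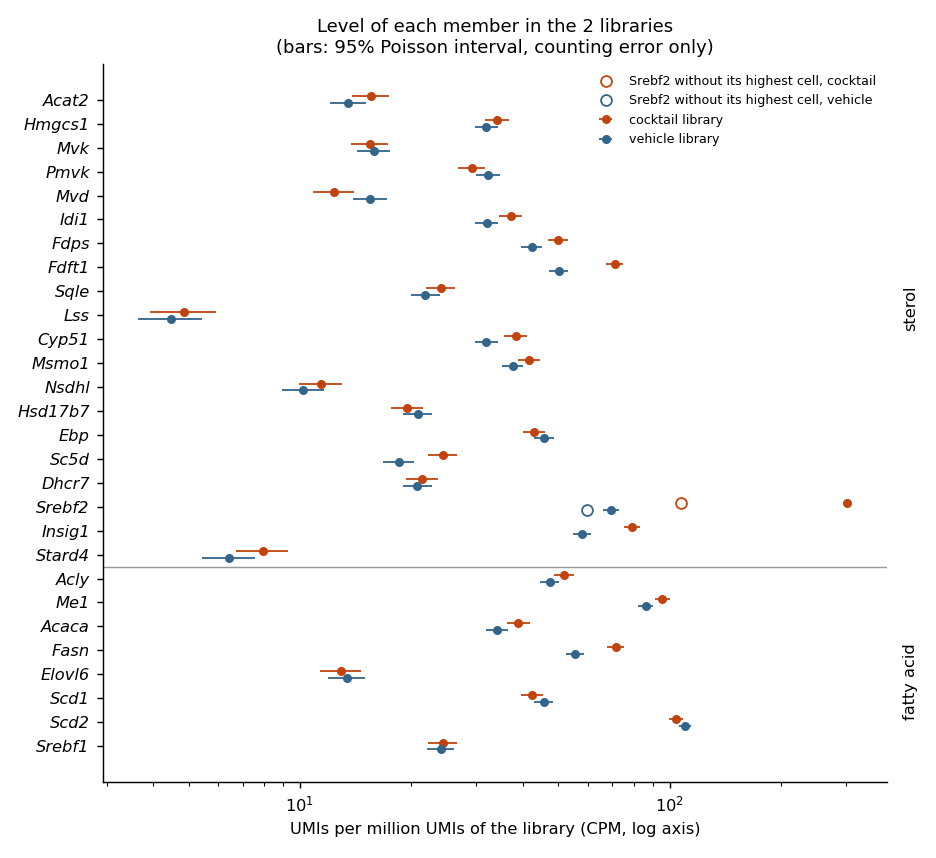
Level of each of the 28 members in the cocktail and vehicle libraries, in CPM on a log axis, with 95% Poisson intervals as bars. Srebf2 stands at 302 CPM in the cocktail library and at 107 CPM (open circle) once its highest cell is left out, whereas most other pairs of points lie close together.

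The regulators differed among themselves. Insig1, itself a target of SREBP2 and the brake on its release, measured 79.1 and 58.0 CPM, 0.45 (0.34 to 0.56), with at most 38 UMIs in any cell. Stard4, a cholesterol carrier, measured 7.94 and 6.43 CPM, 0.30 (-0.03 to 0.64). Srebf2 (chr15:82147181-82205379) measured 302 and 69.4 CPM, 2.12 (2.04 to 2.20), and this value rested on very few cells. A single cocktail cell of 29029 UMIs, in no gated class, held 3802 of the 5899 Srebf2 UMIs, which was 13.1% of that cell's RNA. Leaving out the highest cell of each library brought Srebf2 to 107 and 59.6 CPM, 0.85 (0.75 to 0.95). Leaving out every cell in which 1 member took at least 1% of the UMIs brought it to 0.52. There were 7 such cells: 3 cocktail and 2 vehicle cells for Srebf2, 1 cocktail cell for Acaca and 1 vehicle cell for Mvd. What gives a cell so many UMIs of 1 gene was not tested.

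The sum of all 20 sterol genes was 882 CPM against 579 CPM for vehicle, 0.61 (0.57 to 0.64). Without Srebf2 the other 19 summed to 580 (570 to 591) and 509.9 (501 to 519) CPM, 0.19 (0.15 to 0.22). The sum without Srebf2 is the one given for cell classes, and Srebf2 is given apart. By depth of cell, all 20 genes are summed without the 7 dominated cells. By step, the early enzymes differed by 0.08 (0.02 to 0.14), the squalene enzymes by 0.39 (0.29 to 0.48) and the late enzymes by 0.10 (0.04 to 0.17). The squalene sum was mostly Fdft1, with 1389 of its 1953 cocktail and 1154 of its 1760 vehicle UMIs.

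In the fatty acid branch the differences were small, apart from that of Fasn. Of its 8 genes 5 were higher, against the 44.3% of all genes, with a median of 0.07 and 4 intervals above 0, against 17%, and their sum was 441 (432 to 451) and 416 (408 to 424) CPM, 0.09 (0.04 to 0.13). Fasn measured 71.4 and 55.6 CPM, 0.36 (0.25 to 0.47), and was the 1 fatty acid member at least 25% higher. Acly, ATP-citrate lyase, measured 51.9 and 47.4 CPM, 0.13 (0.01 to 0.26), and Me1, malic enzyme, 95.5 and 86.0 CPM, 0.15 (0.06 to 0.24). Acaca, acetyl-CoA carboxylase, measured 38.9 and 34.1 CPM, 0.19 (0.04 to 0.33), of which 83 cocktail UMIs lay in 1 cell of 7481 UMIs. Without the highest cells Acaca was 0.04 (-0.11 to 0.19), so of the enzymes that build palmitate Fasn alone kept an interval above 0. Acaca and Fasn together differed by 0.30 over the whole libraries, but by -0.04 in Gal- and Cck-rich, 0.05 in other epithelial, 0.04 in interdental or inner sulcus-like, -0.06 in fibroblast-like and -0.75 in Otor- and Emcn-rich cells, the classes defined below. Fasn by itself differed by -0.10, 0.17, 0.27, 0.53 and -0.83 in the same order, each with an interval that holds 0.

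The modifying enzymes leaned the other way as a sum, 159 against 169 CPM, -0.08 (-0.15 to -0.02). Scd1 measured 42.3 and 45.6 CPM, Scd2 104 and 109.9 CPM, and Elovl6, the elongase acting on palmitate, 12.9 and 13.4 CPM, and each had an interval that holds 0. Srebf1, the regulator of this branch, was at 24.3 and 24.0 CPM, 0.02 (-0.16 to 0.20).

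The ratios of both branches varied with the depth of the cells. The shallowest cells, with 500 to under 2000 UMIs, were 23.6% of cocktail and 12.2% of vehicle cells, but held 1.64% and 0.947% of the UMIs. Sums over a library thus describe mainly the cells with at least 15000 UMIs (81.4% and 73.9% of UMIs). The mix of cells differed within bins too. Of the shallowest cells, Gal- and Cck-rich cells were 27.8% in cocktail and 15.5% in vehicle, and other epithelial cells 13.1% and 29.5%. Depth and mix cannot be told apart in these bins. Without the 7 cells named above, the 20 sterol genes differed by 0.07 (-0.24 to 0.39) in the shallowest cells, by 0.29 (0.07 to 0.52) from 2000, by -0.08 (-0.17 to 0.02) from 5000 and by 0.27 (0.24 to 0.31) from 15000 UMIs. The sterol interval thus lay above 0 in the deepest bin and in the bin from 2000 UMIs, and held 0 in the other two. With every cell kept and Srebf2 left out, the sterol sum differed by -0.48 (-0.77 to -0.19), 0.40, -0.05 and 0.22 (0.18 to 0.26) in the same order. The first of these values leaned on 1 of the 7 cells. Of its 193 vehicle UMIs, 66 were Mvd UMIs in a single vehicle cell of 1135 UMIs. The fatty acid sum without the 7 cells differed by -0.51 (-0.94 to -0.07), -0.04, -0.00 and 0.12 (0.07 to 0.17) over the same bins. In cells with at least 5000 UMIs 15 of 20 sterol genes were higher (median 0.18), against 45% of all genes measured there, and 5 of 8 fatty acid genes (median 0.09). Within that range the bins differed. From 5000 to under 15000 UMIs 8 of 20 sterol genes were higher (median -0.09), and from 15000 UMIs 16 of 20 (median 0.24). The share of all genes was not taken for these bins separately. In cells under 5000 UMIs it was 12 of the 17 sterol genes with at least 20 UMIs (median 0.53), against 41.9% of genes, and 2 of 8 fatty acid genes (median -0.18).

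**Figure D2:**
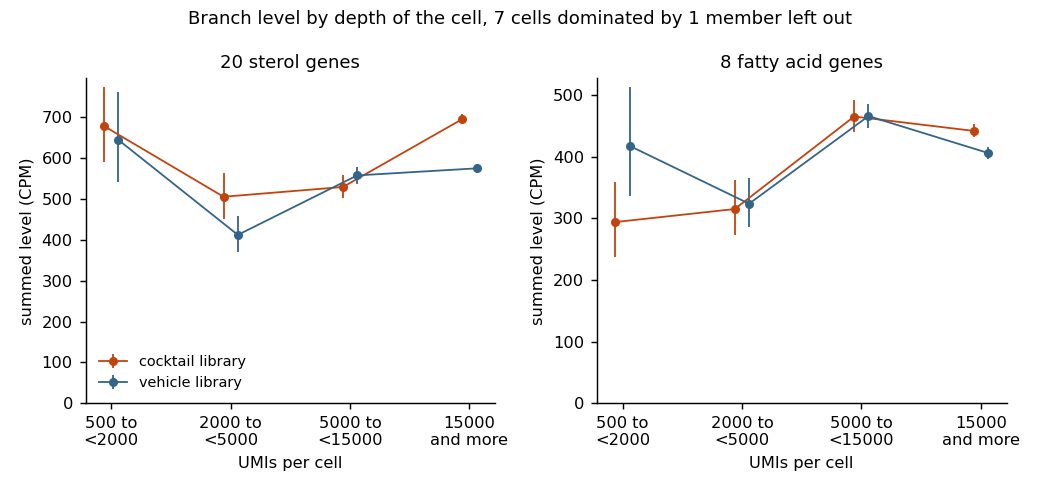
Summed level of the 20 sterol genes and the 8 fatty acid genes in CPM by the number of UMIs per cell, for each library, with 95% Poisson intervals and without the 7 cells in which 1 member took at least 1% of the UMIs. The libraries overlap from 5000 to under 15000 UMIs and separate in the deepest bin of both branches. The difference there was 0.27 for the sterol and 0.12 for the fatty acid genes on the log2 scale.

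Cells were placed in classes by the UMIs of fixed marker genes, with cuts set after the spread of the markers had been seen. A class needed 50 cells in each library to be compared, and 5 classes had them. They were cells rich in Gal and Cck (292 cocktail and 218 vehicle cells), interdental or inner sulcus-like cells marked by Otoa, Otog and Ceacam16 (113 and 70), other epithelial cells marked by Epcam, Cdh1 and keratins (270 and 370), fibroblast-like cells marked by Dcn, Lum and collagens (118 and 111), and cells rich in Otor and Emcn (55 and 54). The interdental or inner sulcus list held 5 markers, Otogl and Tectb being the others. Of these 5, 3 were found in enough cocktail cells of the class to count as detected, and 4 in enough vehicle cells. By that rule Otogl was detected in vehicle only and Tectb in neither library. Cells in no class were 27.0% of all cocktail cells and 22.0% of all vehicle cells, and cells that passed the gates of several lineages (22 and 37) were left out. The tissue is labelled sensory epithelium, yet hair cell-like cells were 0.752% of cocktail and 2.34% of vehicle cells, and fibroblast-like, glia-like and osteoblast-like cells were present too. Hair cell markers had a median of at most 0.39 per 10000 UMIs in the compared classes, and macrophage, endothelial, adipocyte and red blood cell markers a median of 0. Glia markers had a median of 5.55 and 4.86 per 10000 UMIs in interdental or inner sulcus-like, 2.56 and 2.66 in other epithelial cells, and at most 0.92 in the other 3 classes. Their part in the results was not tested.

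Fibroblast-like cells had the highest sterol ratio of the 5 classes by value, and that order was not tested. Of 20 sterol genes 17 were higher, against 44.2% of the genes measured in these cells, with a median of 0.59. Intervals lay above 0 for 10 of them, against 8.7% of genes. Without Srebf2 the sum was 680 (648 to 714) and 436 (409 to 464) CPM, 0.64 (0.53 to 0.76), and 0.65 (0.54 to 0.77) in cells with at least 5000 UMIs. The early enzymes differed by 0.85 (0.66 to 1.04) and the late enzymes by 0.49 (0.32 to 0.67).

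Idi1 measured 43.9 CPM in cocktail and 14.3 CPM in vehicle fibroblast-like cells, 1.62 (1.04 to 2.24), from 108 and 32 UMIs. Fdps measured 95.5 and 47.2 CPM, 1.02 (0.68 to 1.36). Mvd, which was lower over the whole library, measured 13.4 and 5.79 CPM here, 1.21 (0.25 to 2.26). None of the 3 ratios was smaller once the top cells were left out, at 1.68, 1.11 and 1.27. Among the rest, Hmgcs1 differed by 0.87 (0.44 to 1.31), Sqle by 0.96 (0.32 to 1.62), Msmo1 by 0.72 (0.25 to 1.21), Ebp by 0.61 (0.32 to 0.91) and Insig1 by 0.58 (0.22 to 0.95). Srebf2 itself was at 50.0 and 44.1 CPM, 0.18 (-0.21 to 0.58). The fatty acid genes gave another picture, with 3 of 7 higher. Scd2 measured 61.8 and 33.9 CPM, 0.87 (0.46 to 1.28), whereas Acaca measured 28.4 and 39.6 CPM, -0.48 (-0.95 to -0.01).

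In cells rich in Gal and Cck 17 of 20 sterol genes were higher, against 49.3% of genes, with a median of 0.35. Intervals lay above 0 for 9, against 10.5% of genes. The sum without Srebf2 was 688 (664 to 714) and 528 (504 to 551) CPM, 0.38 (0.30 to 0.47). Median depth differed between the libraries in this class, at 7798 UMIs per cocktail and 16502 UMIs per vehicle cell, and restricting the class to 5000 UMIs and more gave 0.37 (0.28 to 0.45). Fdft1 was at 138 and 96.6 CPM, 0.51 (0.32 to 0.71). Idi1 (42.5 and 26.6 CPM), Hmgcs1 (34.8 and 22.2 CPM) and Msmo1 (44.3 and 28.5 CPM) differed by 0.68, 0.65 and 0.64. The late enzymes Dhcr7, which makes cholesterol from its last precursor, and Sc5d differed by 0.53 (0.22 to 0.86) and 0.54 (0.13 to 0.97). Srebf2 was at 102 and 94.4 CPM, 0.12 (-0.09 to 0.32), with its highest cell at 40 and 58 UMIs.

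The fatty acid genes of the same cells went both ways. Acly (67.0 and 52.1 CPM) and Me1 (131 and 92.5 CPM), the suppliers, were higher by 0.36 (0.09 to 0.64) and 0.50 (0.31 to 0.70). Fasn was at 104.6 and 112 CPM, -0.10 (-0.29 to 0.10), and Scd1 at 64.7 and 78.9 CPM, -0.29 (-0.53 to -0.05). Acaca, at 0.10 (-0.23 to 0.43), and Scd2, at 0.05 (-0.19 to 0.30), had intervals that hold 0. The sum was 512 and 484 CPM, 0.08 (-0.01 to 0.17), with 4 of 8 genes higher.

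Other epithelial cells had 16 of 20 sterol genes higher, against 44.4% of genes, with a median of 0.16. Intervals lay above 0 for 4, against 11.5% of genes. Fdft1 (0.24), Sc5d (0.45) and Insig1 (0.32) were among these 4. The fourth was Srebf2, at 166 and 54.4 CPM, 1.61 (1.39 to 1.83), of which 332 and 115 of 688 cocktail UMIs lay in 2 cells. The sum was 0.41 (0.33 to 0.49) with Srebf2 and 0.16 (0.07 to 0.25) without it. Mvd was lower, at 14.5 and 21.4 CPM, -0.57 (-1.06 to -0.08), and -0.44 without the highest cells. It was the 1 sterol gene with an interval below 0, against 14.5% of genes in these cells. The fatty acid sum was 559 and 541 CPM, 0.05 (-0.04 to 0.13), with 5 of 8 higher. Median depth in this class was 13985 UMIs per cocktail and 8932.5 UMIs per vehicle cell. In its cells with at least 5000 UMIs the fatty acid sum differed by 0.05 (-0.04 to 0.13). Under 5000 UMIs it differed by -0.77 (-1.36 to -0.22), from 37 and 100 UMIs.

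In interdental or inner sulcus-like cells the fatty acid sum was lower with cocktail, while the interval of the sterol sum holds 0. Sterol genes were higher in 10 of the 17 with at least 20 UMIs, against 41.7% of genes, with 1 interval above 0, against 6.74%, and the sum without Srebf2 was 558 and 506 CPM, 0.14 (-0.02 to 0.31). The fatty acid sum was 642 (603 to 682) CPM with cocktail against 831 (773 to 893) CPM with vehicle, -0.37 (-0.51 to -0.24), with 3 of 8 genes higher. The modifying enzymes alone were at 251 and 443 CPM, -0.82 (-1.02 to -0.61), while the suppliers Acly and Me1 together were at 197 and 205 CPM. Scd1 was at 9.95 and 108 CPM, -3.43 (-4.30 to -2.66), from 16 and 96 UMIs. Its highest cells held 7 and 20 UMIs, and without them the ratio was -3.93. Scd2 was at 233 and 325 CPM, -0.48 (-0.71 to -0.26). Epithelial markers were at a median of 28.3 and 30.8 per 10000 UMIs in these cells. In other epithelial cells Scd1 was at 94.3 and 107 CPM, so both libraries held cells with the gene at a high level. With the gate cut halved, which lets more cells into the class, the fatty acid difference was -0.08.

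Cells rich in Otor and Emcn had 13 of 14 sterol genes higher, against 49.1% of genes, with a median of 0.39, but 1 interval above 0, against 8.69%. This was Insig1, at 34.0 and 16.9 CPM, 1.01 (0.02 to 2.06). The sum without Srebf2 was 391 (348 to 438) and 287 (252 to 326) CPM, 0.45 (0.20 to 0.70). Thinned to 1000 UMIs per cell the sterol difference was 0.11. The fatty acid sum was 242 and 268 CPM, -0.15 (-0.44 to 0.14). Within it Elovl6 was at 41.9 and 19.3 CPM, 1.12 (0.21 to 2.08), and Me1 at 32.7 and 66.3 CPM, -1.02 (-1.76 to -0.31). Fibroblast markers had a median of 6.35 per 10000 UMIs in the cocktail and 28.2 in the vehicle cells of this class, and their part in these values was not tested.

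**Figure D3:**
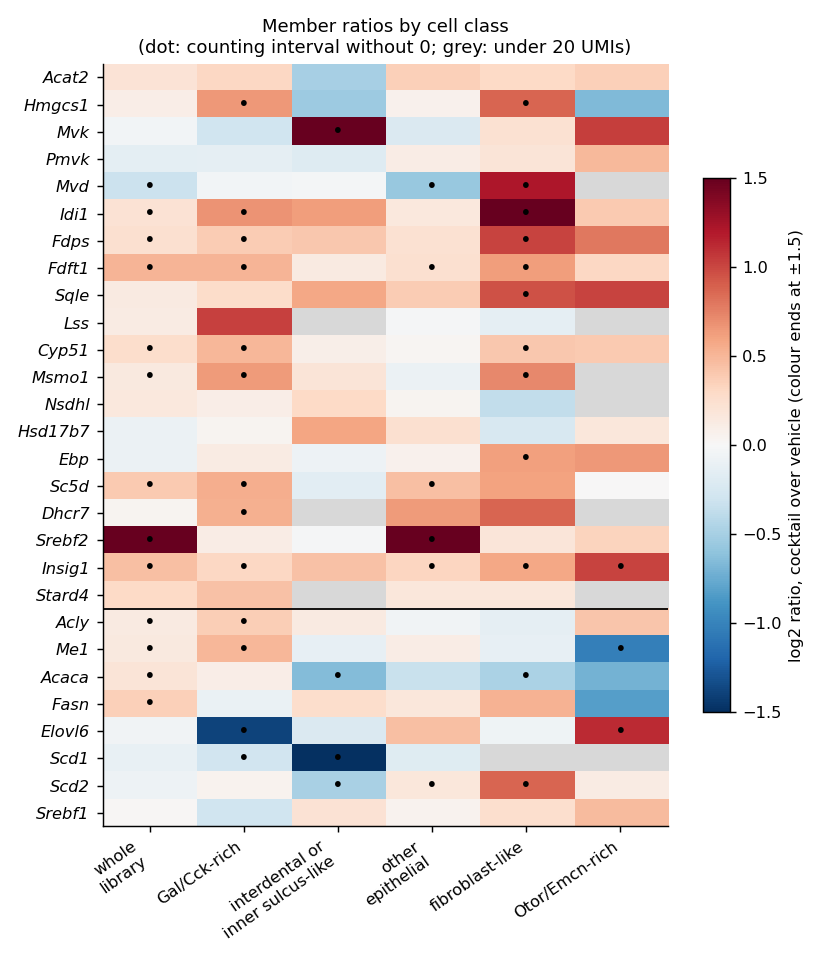
Log2 ratio of cocktail over vehicle for each member (rows) in the whole library and in the 5 compared cell classes (columns). Red is higher and blue lower in the cocktail library, a dot marks a counting interval without 0, and grey marks fewer than 20 UMIs. The fibroblast-like and Gal/Cck-rich columns are red over most sterol rows, whereas the fatty acid rows below the line hold both colours.

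Smaller classes are described without a comparison because they held few cocktail cells, and several had high levels of one branch. Hair cell-like cells (10 cocktail and 37 vehicle cells) entered the class with at least 2 of the 9 markers used. Gal and Cck together had a median of 27.2 per 10000 UMIs in the cocktail and 0 in the vehicle cells of this class. The sterol sum without Srebf2 of hair cell-like cells was at 1513 (1339 to 1704) and 1021 (941 to 1107) CPM. Glia-like cells (33 and 125 cells) had it at 1143 (1012 to 1287) and 622 (573 to 674) CPM. Neuron-like cells (5 and 14 cells) had it at 1032 and 772 CPM and osteoblast-like cells (4 and 61 cells) at 673 and 757 CPM. In each library these 4 classes exceeded the whole-library level of 580 and 509.9 CPM by value. The interval of the cocktail osteoblast-like cells, 547 to 820 CPM, held that 580 CPM. Below the whole-library level were Vmo1-rich cells at 340 and 394 CPM and Opcml- and Mfap4-rich cells at 492 and 454 CPM. Endothelial-like cells, found in the vehicle library only, were at 268 CPM. The fatty acid sum of glia-like cells was 997 (874 to 1132) and 824 (768 to 883) CPM, most of it Scd2 at 708 and 568 CPM. Without Scd2 it was 289 and 256 CPM, below the 337 and 306 CPM of the whole libraries.

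**Figure D4:**
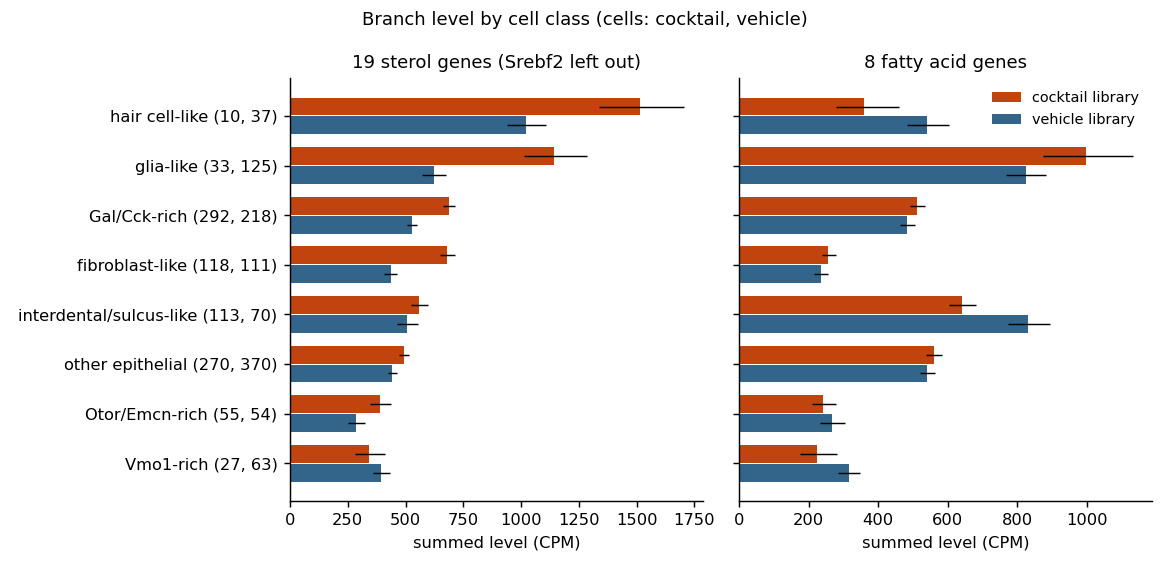
Summed level in CPM of 19 sterol genes and of 8 fatty acid genes in 8 cell classes, for the cocktail and vehicle libraries, with 95% Poisson intervals and the number of cells in brackets. Hair cell-like cells have the longest sterol bar of the classes shown in each library, at 1513 and 1021 CPM, and glia-like and interdental or inner sulcus-like cells the longest fatty acid bars.

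Some members had a pattern of their own. Hsd17b7, a late sterol enzyme that also acts on estrone, was at 277 CPM in cocktail and 268 CPM in vehicle hair cell-like cells, against a median of 14.0 CPM over 17 combinations of class and library with at least 25 cells. Of its 50 cocktail UMIs there 24 lay in 1 cell, whereas the highest vehicle cell held 25 of 156. Me1 was at 149.7 and 251 CPM in hair cell-like cells, against a median of 76.3 CPM. Of its 27 cocktail UMIs there 11 lay in 1 cell. Its level was not particular to that class. Me1 was at 143 and 156 CPM in interdental or inner sulcus-like cells, and at 131 and 92.5 CPM in Gal- and Cck-rich cells. Ebp reached 169 CPM in vehicle osteoblast-like cells, against a median of 36.0 CPM. Across the same 17 combinations, the rank correlation of a gene with the summed level of the rest of its branch was 0.88 for Fdps, 0.85 for Msmo1 and 0.83 for Sqle, and -0.02 for Hsd17b7, 0.06 for Mvd and 0.08 for Ebp. In the fatty acid branch it was 0.78 for Scd1 and 0.69 for Fasn, but 0.21 for Acly, 0.02 for Acaca and -0.07 for Elovl6. These correlations describe 17 groups that share 2 libraries and carry no test.

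Neighbouring genes of the pathway, from 6 related lists of 60 genes, were split. Their counts are to be read against the 44.3% of all genes that were higher in the cocktail library. Of 7 further sterol synthesis genes 4 were higher, with a median of 0.09. For sensing and uptake 6 of 9 measured genes were higher, with a median of 0.12, 4 intervals above 0 and 1 below, against 17% and 22.8% of all genes. The lysosomal carriers Npc1 and Npc2 were at 0.17 and 0.18. Scap, the escort of SREBP2, was at 18.2 and 17.8 CPM, 0.03 (-0.18 to 0.24).

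The list of efflux genes, ester formation and targets of the sterol receptor LXR went both ways, with 5 of 10 higher, against 44.3%. The LXR targets Abca1 (50.3 and 73.0 CPM, -0.54), Abcg1 (6.45 and 9.34 CPM, -0.53) and Smpdl3a (23.9 and 34.5 CPM, -0.53) were lower. Apoe, a lipid carrier and also an LXR target, was higher at 589 and 335 CPM, 0.82 (0.77 to 0.86). Lpcat3, an acyltransferase of membrane phospholipids and an LXR target, was higher too, at 41.1 and 33.0 CPM, 0.31 (0.17 to 0.46), and Mylip, another, was at 0.11 (-0.06 to 0.27). Ch25h, which makes 25-hydroxycholesterol and is known to be induced by interferon, was at 10.3 and 3.65 CPM, 1.50 (1.13 to 1.89). Soat1, which forms cholesterol esters, was at 62.6 and 47.9 CPM, 0.39 (0.27 to 0.51).

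Among 15 genes of elongation, desaturation and activation 9 were higher, against 44.3% of all genes, with a median of 0.06. Elovl1 was at 59.96 and 43.4 CPM, 0.47 (0.34 to 0.59), and Acsl3, which activates fatty acids, at 119 and 91.6 CPM, 0.38 (0.29 to 0.46). Acss2 and Agpat2 were lower, at -0.28 (-0.55 to -0.01) and -0.31 (-0.51 to -0.11). Gpam stood at 0.49 but at -1.29 without its highest cells. Of 13 genes of oxidation and storage 9 were higher, with a median of 0.09. Pdk4, the kinase that shuts pyruvate out of the citric acid cycle, was at 47.8 and 27.5 CPM, 0.80 (0.65 to 0.95), and the lipid droplet gene Plin2 at 87.3 and 68.9 CPM, 0.34 (0.24 to 0.44). Ppara, a transcription factor of fatty acid oxidation, and Acadl, an acyl-CoA dehydrogenase, were lower, at -0.49 (-0.82 to -0.15) and -0.18 (-0.26 to -0.09). Of the 5 genes that supply NADPH 3 were higher, with a median of 0.04.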

How the data were processed

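The authors deposited, for each 10x 3′ library, a matrix of whole UMI counts without normalization. Per the file headers it was made by Cell Ranger 5.0.0. Cell Ranger 5.0, Seurat 3.2.2, STAR and the mouse builds GRCm38 and mm10 are named, with no role, in the submitters' processing notes. Gene positions are from GENCODE M21, which held 31011 of the 31053 identifiers. Barcodes under 500 UMIs, under 300 genes or above 20% mitochondrial UMIs were dropped, which removed 74 cocktail and 104 vehicle barcodes. No doublet caller was run, and free RNA was not subtracted.

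The members, related lists and markers were chosen with earlier results of these data known. All 28 members are named, and other genes are named from the related lists. Some genes of those lists are not reported here. A cell entered a class with at least 2 distinct markers and at least 0.1% of its UMIs from the list (0.5% for Gal and Cck, 0.2% for glia and neurons), cuts chosen after marker levels were seen. Counts were summed per library or class and scaled to 1000000. Ratios have exact conditional and levels exact Poisson intervals at 95% (scipy 1.17.1), which cover counting error only. A ratio needed 20 UMIs over both libraries. Because the cultures were pooled, the spread between them is unknown. The code was checked on simulated counts. Alternatives were other filters, scalings, thinning to fixed depths, weightings, gate cuts and the removal of extreme cells.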

Additional observations from a re-analysis of the deposited data

Results flagged for a closer look

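In 4 members the counting intervals lay on opposite sides of 0 in different cell classes. The share of all genes with such a pattern was not counted. The differences between classes were not tested, since there is 1 library per treatment. Mvd was 1.21 in fibroblast-like and -0.57 in other epithelial cells. In the latter 1 vehicle cell held 22 of 93 UMIs, and the ratio was -0.44 without the highest cells. Me1 was 0.50 in cells rich in Gal and Cck and -1.02 in cells rich in Otor and Emcn. Elovl6 was 1.12 in cells rich in Otor and Emcn and -1.39 in cells rich in Gal and Cck, the latter from 8 and 18 UMIs. Scd2 was 0.17 in other epithelial and 0.87 in fibroblast-like cells, but -0.48 in the interdental or inner sulcus-like class.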

How the results depend on the processing

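Of 134 log2 values of branch sums and medians under alternatives, 12 had the opposite sign to the reported one, and all 12 are among the values below. The sterol sum of 0.61 was 0.30 as a mean of per-cell CPM, 0.64 after scaling by the median ratio, 0.36 in cells under 5000 UMIs, 0.40 and 0.45 thinned to 1000 and 5000 UMIs, 0.57 with depth bins and 0.40 with classes weighted alike, 0.27 without each gene's highest cell, 0.23 without the 7 cells dominated by 1 member (an alternative chosen after seeing the data) and 0.19 without Srebf2. The sterol median was 0.53 under 5000 UMIs and 0.35 with classes weighted alike. The fatty acid sum of 0.09 was -0.056 per cell, -0.16 under 5000 UMIs, -0.0062 thinned to 1000 UMIs, -0.0048 with classes weighted alike and 0.14 without Scd2. Its median was -0.18, with 2 of 8 higher, under 5000 UMIs. Thinned to 1000 UMIs, sterol sums were -0.12 in interdental or inner sulcus-like, 0.56 in Gal/Cck-rich and 0.11 in Otor/Emcn-rich cells. The other epithelial sterol sum was 0.57 and 0.27 with the cut halved and doubled, and 0.23, 0.15 and 0.16 without highest cells, dominated cells and Srebf2 (the first and second of these chosen after seeing the data). Class fatty acid sums were, for interdental or inner sulcus-like cells, -0.082 with the cut halved, -0.21 per cell and -0.59 thinned to 1000 UMIs. They were -0.036 per cell in Gal/Cck-rich cells, -0.069 with the cut halved and -0.055 per cell in other epithelial cells, 0.43 thinned in Otor/Emcn-rich cells, and 0.54 thinned, -0.032 per cell and -0.046 without Scd2 in fibroblast-like cells.

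Of 336 member values under alternatives, 42 had the opposite sign to the reported one, 12 of them for members whose reported interval excludes 0. Among these 12, Cyp51 was -0.079 per cell, -0.18 and -0.028 thinned to 1000 and 5000 UMIs. Msmo1 was -0.19 per cell and -0.36 under 5000 UMIs, and Fdps -0.14 thinned to 5000 UMIs. Me1 was -0.011 per cell and -0.18 under 5000 UMIs, Acly -0.025 under 5000 and -0.16 thinned to 1000 UMIs, and Acaca -0.19 under 5000 UMIs and -0.26 with classes weighted alike. The cause of these shifts was not tested. No paired analysis was possible because each treatment has 1 library. Interdental and Otor/Emcn-rich cells were few, and most of their single-gene intervals hold 0.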
